A study of Mus musculus with 30 samples.

Results

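Tumours grown from Jak1-deficient MC38 cells were compared with tumours grown from wild-type MC38 cells in mice that had received a control antibody. The comparison took the 5 libraries labelled Jak1KO with IgG1 and the 5 labelled WT with IgG1, 10 of the 30 libraries of the series, and covered the 15505 genes of 55471 that were expressed at a testable level. MC38 is a mouse colon adenocarcinoma line. The Jak1KO cells carry loss-of-function mutations in Jak1, and the injected cells differ in this while the labels give no alteration in the host. Both groups were subcutaneous tumours in female C57BL/6 mice of 6 to 8 weeks that had been given 100 µg of IgG1 isotype control into a vein on days 7, 10 and 13. About 50 mg of tumour was taken on day 14. Jak1KO and WT tumours treated with an antibody against PD-1 (aPD1, 5 libraries each) and B2m-deficient tumours with IgG1 (5 libraries) are used below only to place the same genes in other libraries. Whether the mutated cells are 1 clone or a pool is not given in the sources used here. Nor do the labels say whether the libraries are from separate mice, and the p-values rest on a spread between samples, shared over all 30 libraries of the series in 1 fit, that may be technical.

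JAK1 is a tyrosine kinase bound to the inside of cytokine receptors. With TYK2 it serves the receptors for type I interferon, with JAK2 the receptor for interferon gamma, and with the shared subunit gp130 the receptors of the interleukin-6 family. Type I interferon drives a complex that includes STAT2 and IRF9 to the interferon-stimulated response element (ISRE), whereas interferon gamma acts through the gamma-activated site (GAS). In tumour cells these pathways raise antigen presentation on MHC class I, antiviral proteins and chemokines. The tumour also holds host immune, stromal and vessel cells with an intact Jak1 gene, and in bulk tissue fewer cells of a type and less RNA per cell cannot be told apart.

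The bases before the start of 4 genes of the type I interferon list are shown because, among members of the interferon lists that were lower and whose window held a motif, these had the smallest p. Sequences are from RefSeq (GRCm38.p6), 250 bases up to the annotated start, on the gene's strand. Capitals mark the ISRE core, searched as GAAA, any 2 bases and GAAA on either strand, which reads TTTC, any 2 bases and TTTC when it lies on the other strand. Ifit1 at chr19:34640639-34640888 and Ifit3b at chr19:34607707-34607956 lie on the plus strand, as does Ifit3 at chr19:34583279-34583528, and Rsad2 at chr12:26456453-26456702 is on the minus strand.
Ifit1: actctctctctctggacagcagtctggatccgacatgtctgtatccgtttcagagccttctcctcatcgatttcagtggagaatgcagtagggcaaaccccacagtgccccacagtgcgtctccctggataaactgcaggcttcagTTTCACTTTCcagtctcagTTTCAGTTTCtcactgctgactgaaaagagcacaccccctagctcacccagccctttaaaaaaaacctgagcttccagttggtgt
Ifit3b: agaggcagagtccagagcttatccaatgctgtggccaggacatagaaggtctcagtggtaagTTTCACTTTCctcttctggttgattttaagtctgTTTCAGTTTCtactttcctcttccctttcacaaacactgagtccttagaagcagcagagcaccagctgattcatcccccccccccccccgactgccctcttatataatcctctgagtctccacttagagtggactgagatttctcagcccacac
Ifit3: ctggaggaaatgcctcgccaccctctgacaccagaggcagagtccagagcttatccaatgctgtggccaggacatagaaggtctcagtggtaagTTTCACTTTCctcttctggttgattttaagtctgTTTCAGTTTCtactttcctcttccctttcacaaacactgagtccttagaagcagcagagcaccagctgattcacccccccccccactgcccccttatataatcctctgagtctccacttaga
Rsad2: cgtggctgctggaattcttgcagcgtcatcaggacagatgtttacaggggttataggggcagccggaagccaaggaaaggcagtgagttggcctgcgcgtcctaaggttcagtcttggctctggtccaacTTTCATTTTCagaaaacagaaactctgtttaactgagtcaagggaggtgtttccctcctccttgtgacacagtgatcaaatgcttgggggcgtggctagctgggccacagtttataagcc

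The Ifit windows held 2 matches each and the Rsad2 window 1. Over the 22 of 30 type I list genes with an entry in the promoter table, 41.7% of 24 promoters held an ISRE core, and over 20 of the 33 interferon gamma list genes 45.8% of 24 did, against 2.85% of the 14019 promoters of tested genes and 2.98% of all 32851 promoters in the table. The GAS motif, TTCNNNGAA, was present in 41.7% of the interferon gamma promoters, 16.7% of the type I promoters and 5.90% of the promoters of tested genes. Of the promoters of genes that were lower in Jak1KO tumours, 4.76% held an ISRE core, and of those that were higher 2.44% did. A match says only that these letters stand in the window.

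Across all genes, 2773 of 15505 differed between Jak1KO and WT tumours at an adjusted p under 0.05 (17.9%), 1074 of them higher (6.93%) and 1699 lower (11.0%) in Jak1KO tumours. The counts of list members below stand beside these shares, and no set test was run on them. A fit of the 10 libraries alone called 1611 genes. Of the differing genes, 760 changed by at least 1 on the log2 scale, 209 upward and 551 downward. The 5 Jak1KO and 5 WT libraries did not overlap for 2324 genes (15.0%), and 1875 genes both passed the test and did not overlap. Changes are log2 fold changes of Jak1KO over WT ± SE, and levels are counts per 1000000 after TMM scaling (CPM), which are not corrected for gene length. Total counts were 17629795 to 23482943 per library in the Jak1KO group and 17833233 to 23938816 in the WT group. WT replicate 3 stood apart, with the lowest Jak1 level of the WT libraries and the highest summed level of the macrophage list, 8574 CPM against 2532 to 5250 CPM in the other WT libraries. Epithelial markers of a colon carcinoma were low in every library. Of 20 such genes 8 were tested and 1, Lgr5, was lower, which did not pass without Jak1KO replicate 1, 2 or 3 or WT replicate 2 or 5. Their sum was 12.5 and 15.1 CPM in Jak1KO replicates 1 and 5 and 3.39 to 3.65 CPM in the other Jak1KO libraries, against 6.06 to 8.52 CPM in WT libraries. The keratins Krt8, Krt18 and Krt19 had log2 differences of 2.94 ± 1.56, 3.08 ± 1.67 and 3.06 ± 1.79, and Cdh1 and Muc1 of -0.70 ± 0.31 and -0.82 ± 0.30, none past the threshold. Epcam was at 0.0941 to 0.836 CPM in Jak1KO and 0 to 0.111 CPM in WT tumours, while Vim, the mesenchymal filament vimentin, was at 3433 to 4224 CPM in Jak1KO and 2303 to 3783 CPM in WT tumours.

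Jak1 itself (ENSMUSG00000028530, chromosome 4, 101152367 to 101265282, GRCm38) was low in all 5 knockout libraries. It was at 72.7, 68.8, 74.3, 77.2 and 64.4 CPM in the Jak1KO libraries, against 242, 255, 182, 243 and 239 CPM in the WT libraries. The groups did not overlap, and the change was -1.70 ± 0.10 (adjusted p = 2.5e-12). Reads from host cells and reads of a mutated transcript both count toward this level. Of the 9 tested interferon receptor chains and JAK kinases, Jak1 alone passed the test, and without WT replicate 2 there were 2. The partner kinases Jak2 and Tyk2 had log2 differences of 0.17 ± 0.11 and 0.31 ± 0.15, the type I receptor chain Ifnar2 one of -0.21 ± 0.08 and the interferon gamma receptor chain Ifngr2 one of -0.32 ± 0.13, none past the threshold. With DESeq2 the 2 receptor chains passed, and 3 of the 9 genes were lower.

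**Figure D1:**
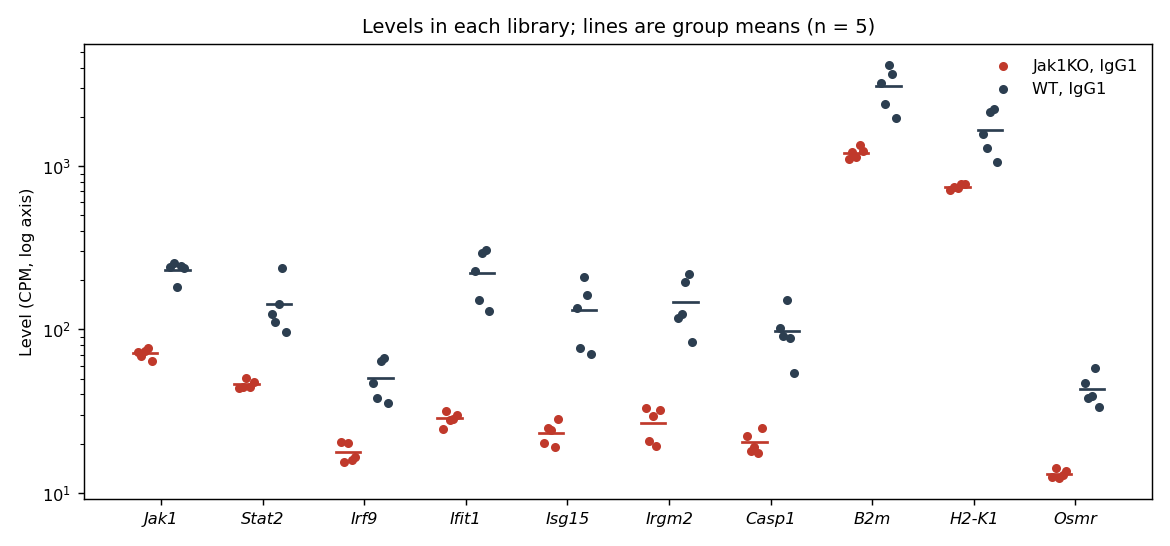
Level of 10 genes (CPM, log axis) in each of the 5 Jak1KO (red, left) and 5 WT (dark, right) libraries with IgG1; horizontal lines are group means. For every gene shown, all 5 Jak1KO points lie below all 5 WT points.

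Below the receptors, the factors that carry the interferon signal were lower in Jak1KO tumours. Of 28 tested STATs, interferon regulatory factors and feedback inhibitors, 9 were lower and 1 was higher. Stat2, a factor of the type I interferon complex, was at 43.8, 44.1, 50.4, 44.6 and 47.5 CPM in the Jak1KO libraries, against 124, 112, 143, 238 and 96.0 CPM in the WT libraries, a change of -1.63 ± 0.19 (adjusted p = 5.27e-07). Irf9, the DNA-binding subunit of the same complex, was at 20.5, 15.5, 20.0, 15.9 and 16.6 CPM in the Jak1KO libraries, against 46.9, 38.2, 64.3, 67.1 and 35.3 CPM in the WT libraries, and fell by 1.51 ± 0.17. Neither gene overlapped between the groups. Usp18, a brake on the type I receptor that is itself interferon-induced, was at 6.40, 8.54, 7.53, 6.09 and 9.24 CPM in the Jak1KO libraries, against 35.2, 24.6, 70.9, 48.9 and 21.9 CPM in the WT libraries (-2.41 ± 0.30, adjusted p = 1.37e-06). Every Jak1KO library was below the lowest WT library for Usp18.

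Irf7, which amplifies type I interferon, changed by -1.09 ± 0.25 (adjusted p = 0.0026). Stat3, the main factor of the interleukin-6 family, was at 123, 119, 122, 126 and 117 CPM in the Jak1KO libraries, against 222, 208, 146, 242 and 173 CPM in the WT libraries (-0.71 ± 0.14, adjusted p = 0.000605), and Socs3, its feedback inhibitor, changed by -0.86 ± 0.18 (adjusted p = 0.00124). Irf1, a primary target of interferon gamma, changed by -0.48 ± 0.14 (adjusted p = 0.0144), and its adjusted p was 0.0669 when WT replicate 3 was left out. Irf3, which is activated by nucleic acid sensors and does not depend on JAKs, was the member that rose, by 0.30 ± 0.08, and 2 rose without Jak1KO replicate 2 or WT replicate 1 or 4. Stat4, Stat5a, Stat5b, Stat6, Irf5 and Socs1 were among the 18 members that did not pass.

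All 30 members of the type I interferon list were lower in Jak1KO tumours, with changes of -3.30 to -0.51 and a median of -1.46, beside a median of 0.00196 over all genes. The summed level of the list was 1022 to 1152 CPM in Jak1KO libraries and 2127 to 4896 CPM in WT libraries. The Jak1KO libraries lay close together and the WT libraries spread over more than the distance between the groups. Leaving out any 1 library kept 29 or 30 of the 30 calls. Ifit1, an RNA-binding antiviral protein whose promoter is shown above, was at 24.6, 31.6, 27.8, 28.5 and 30.0 CPM in the Jak1KO libraries, against 227, 151, 292, 307 and 130.1 CPM in the WT libraries (-2.96 ± 0.23, adjusted p = 2.83e-10). Isg15, a ubiquitin-like modifier, was at 20.2, 24.9, 24.2, 19.1 and 28.5 CPM in the Jak1KO libraries, against 135, 77.0, 209, 163 and 71.0 CPM in the WT libraries (-2.49 ± 0.26, adjusted p = 7.4e-08). Rsad2, the antiviral radical-SAM enzyme viperin, was at 20.3, 56.6, 40.5, 41.2 and 32.7 CPM in the Jak1KO libraries, against 269, 222, 209, 387 and 152 CPM in the WT libraries (-2.70 ± 0.28, adjusted p = 4.92e-08). No Jak1KO library reached the lowest WT library for any of the 3 genes.

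Ifi44 changed most in the list, with 8.15, 7.99, 7.29, 5.68 and 7.86 CPM in the Jak1KO libraries, against 76.7, 46.7, 98.8, 116 and 25.4 CPM in the WT libraries (-3.30 ± 0.32, adjusted p = 1.42e-08). Cmpk2, a nucleotide kinase next to Rsad2 on chromosome 12, changed by -2.57 ± 0.24 (adjusted p = 6.58e-09). Mx2, an interferon-induced GTPase, changed by -2.73 ± 0.30, and Ifit3 and Ifit3b by -2.81 ± 0.29 and -3.18 ± 0.30; these last 2 are near-identical copies whose reads the counting could not always assign. The RNA sensors Ddx58 (RIG-I) and Ifih1 (MDA5) changed by -1.20 ± 0.18 and -1.40 ± 0.14. The member that changed least was Eif2ak2, the kinase PKR, with -0.51 ± 0.14 (adjusted p = 0.0134) and an adjusted p of 0.0656 without WT replicate 4, and it was the single member whose groups overlapped. In the related p200 and Schlafen families 7 of 17 tested members were lower and 0 higher, including Slfn8 (-1.45 ± 0.23, adjusted p = 3.27e-05) and Mndal (-1.22 ± 0.19, adjusted p = 3.78e-05).

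Of 33 interferon gamma targets, 23 were lower and 0 higher, with a median of -1.38. Summed levels were 1129 to 1767 CPM in Jak1KO libraries and 2230 to 4706 CPM in WT libraries, without overlap, and 20 to 24 members were lower when any 1 library was left out. The immunity-related GTPase Irgm2 was at 32.8, 20.8, 29.4, 19.3 and 32.2 CPM in the Jak1KO libraries, against 118, 125, 195, 217 and 84.0 CPM in the WT libraries (-2.46 ± 0.26, adjusted p = 9.17e-08), and its relative Igtp changed by -2.51 ± 0.30 (adjusted p = 6.02e-07). Among guanylate-binding proteins, Gbp3 was at 39, 26.6, 28.4, 26.2 and 46.6 CPM in the Jak1KO libraries, against 159, 161, 203, 259.9 and 94.8 CPM in the WT libraries (-2.40 ± 0.27, adjusted p = 1.97e-07). All Jak1KO values for Irgm2 and Gbp3 lay below all WT values. Nos2, inducible nitric oxide synthase, changed by -2.50 ± 0.46 (adjusted p = 0.000271). Casp1, the inflammatory caspase that activates interleukin-1 beta, was at 22.3, 18.0, 19.1, 17.5 and 24.8 CPM in the Jak1KO libraries, against 102, 91.0, 152, 89.2 and 53.9 CPM in the WT libraries (-2.26 ± 0.20, adjusted p = 4.31e-09). Vcam1, an adhesion molecule, changed by -1.01 ± 0.12 (adjusted p = 6.58e-07), and Cxcl10, a chemokine for T cells, was at 46.9, 44.6, 38.7, 40.2 and 73.7 CPM in the Jak1KO libraries, against 104, 102, 143, 167 and 102 CPM in the WT libraries (-1.34 ± 0.19, adjusted p = 1.16e-05). The Gbp, Irg and Tgtp genes lie in clusters of similar copies, so their single values are uncertain.

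The 10 interferon gamma targets that did not pass included Cxcl9, Ciita and Cd274. Cxcl9, another T cell chemokine, was at 139, 40.1, 55.0, 32.2 and 217 CPM in the Jak1KO libraries, against 61.9, 94.2, 124, 91.8 and 71.4 CPM in the WT libraries, and the Jak1KO libraries spanned the whole WT range (0.13 ± 0.56, adjusted p = 0.904). Ciita, the master regulator of MHC class II, was at 21.8, 1.85, 8.14, 3.37 and 15.4 CPM in the Jak1KO libraries, against 2.74, 8.35, 7.22, 8.82 and 4.00 CPM in the WT libraries (0.70 ± 0.67, adjusted p = 0.494), again with overlap. Cd274, which encodes the ligand PD-L1, was at 25.8, 23.8, 20.8, 28.7 and 32.0 CPM in the Jak1KO libraries, against 33.6, 34.2, 41.6, 52.6 and 26.2 CPM in the WT libraries, and its difference of -0.52 ± 0.29 did not pass (adjusted p = 0.207). Ido1 was under 1 CPM in every library.

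Genes of antigen presentation by MHC class I were lower in part, and none of class II passed. Of 24 class I genes, 15 were lower and 0 higher (median -0.68), and the summed level was 7744 to 8475 CPM in Jak1KO libraries and 10315 to 19452 CPM in WT libraries. H2-K1, a classical heavy chain, was at 711, 747, 731, 778 and 777 CPM in the Jak1KO libraries, against 1572, 1284, 2143, 2221 and 1061 CPM in the WT libraries (-1.15 ± 0.18, adjusted p = 3.56e-05), and H2-D1 changed by -1.07 ± 0.20 (adjusted p = 0.000294). B2m, the invariant light chain and a gene that is intact in both cell types, was at 1099, 1219, 1136, 1338 and 1230 CPM in the Jak1KO libraries, against 3240, 2383, 4176, 3684 and 1965 CPM in the WT libraries (-1.36 ± 0.19, adjusted p = 5.65e-06). For these chains no library of one group entered the range of the other. The non-classical H2-Q6 and H2-Q7, near-identical copies, changed by -2.53 ± 0.22 and -2.16 ± 0.22. The immunoproteasome subunit Psmb9 changed by -1.51 ± 0.28 (adjusted p = 0.000251) and the peptide transporter Tap1 by -0.94 ± 0.16 (adjusted p = 7.56e-05). Tap2, Psmb10 and Erap1 were among the 9 members that did not pass.

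None of the 10 class II genes passed with edgeR, DESeq2 or limma voom, 0 had an unadjusted p under 0.05, and 0 had groups without overlap. Cd74, the class II invariant chain, was at 813, 71.9, 308, 246 and 481 CPM in the Jak1KO libraries, against 126, 302, 461, 509.9 and 163 CPM in the WT libraries (0.30 ± 0.70, adjusted p = 0.805). Levels of Cd74 ranged more than 10-fold among the Jak1KO libraries, from replicate 2 at the low end to replicate 1 at the high end.

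**Figure D2:**
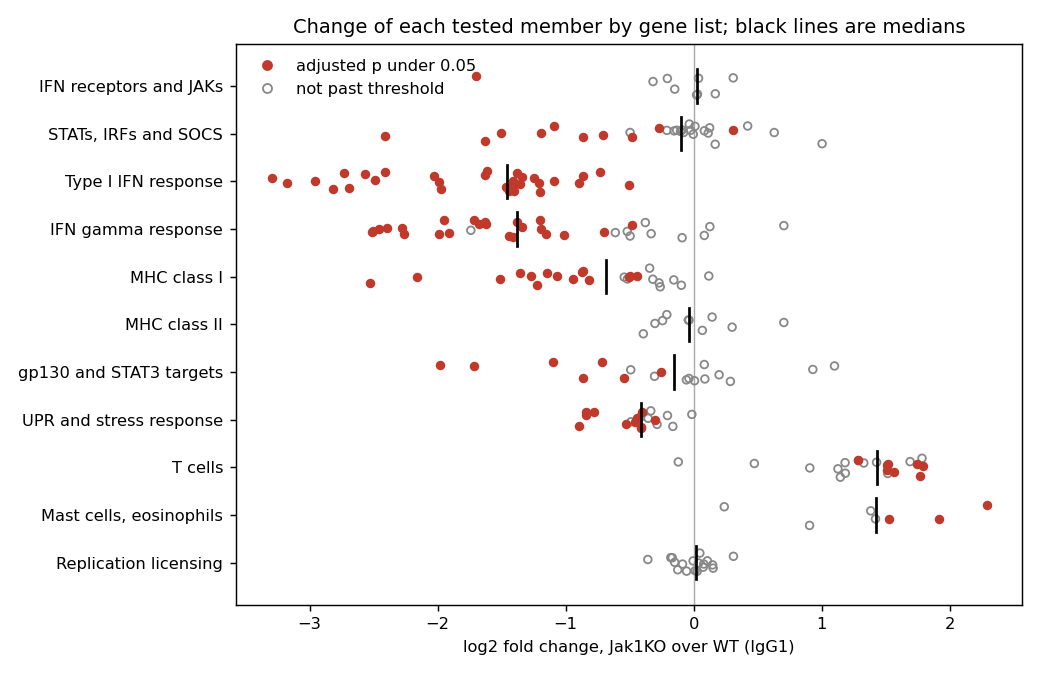
Change of every tested member (log2 fold change, Jak1KO over WT, IgG1) for 11 gene lists; filled red points passed the test, open grey points did not, and black lines are medians. The medians of the type I and gamma lists are -1.46 and -1.38, the MHC class I median is -0.68, and replication licensing genes lie around 0.

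Receptors and targets of the interleukin-6 family, which also signal through JAK1, were lower in part. Of 18 gp130 and STAT3 targets 7 were lower and 0 higher. Bcl3, a nuclear IkB protein, was at 4.87, 6.95, 7.34, 6.65 and 8.20 CPM in the Jak1KO libraries, against 32.1, 22.1, 22.1, 34.8 and 23.3 CPM in the WT libraries (-1.98 ± 0.17, adjusted p = 1.2e-09). Osmr, the oncostatin M receptor, was at 12.5, 14.2, 12.3, 12.9 and 13.6 CPM in the Jak1KO libraries, against 46.9, 38.2, 39.2, 57.7 and 33.4 CPM in the WT libraries (-1.72 ± 0.19, adjusted p = 1.98e-07). The Jak1KO libraries held a narrow range for both genes and did not overlap the WT libraries. Cebpd, an acute-phase transcription factor, changed by -1.10 ± 0.22 (adjusted p = 0.000541), Junb by -0.72 ± 0.18 (adjusted p = 0.00582) and Timp1, an inhibitor of matrix metalloproteinases, by -0.54 ± 0.14 (adjusted p = 0.00828). Saa3 and Ccnd1 were among the 11 that did not pass.

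Of 18 cytokine receptors that use JAK1, 6 were lower and 1 was higher. Osmr is counted in both lists. Il6st, which encodes gp130 (-0.03 ± 0.14, adjusted p = 0.919), and Il6ra (-0.31 ± 0.20, adjusted p = 0.278) did not pass. Lifr, the leukaemia inhibitory factor receptor, was at 10.1, 11.4, 9.36, 8.45 and 7.11 CPM in the Jak1KO libraries, against 19.3, 17.0, 21.4, 25.6 and 14.1 CPM in the WT libraries (-1.07 ± 0.18, adjusted p = 0.000121), and the interleukin-15 receptor chain Il15ra changed by -0.64 ± 0.12 (adjusted p = 0.000439). The groups did not overlap for either receptor. Il2rb, a chain found on T and NK cells, was the member that rose, with 27.5, 12.7, 16.6, 13.2 and 23.4 CPM in the Jak1KO libraries, against 6.37, 9.96, 5.72, 7.22 and 6.02 CPM in the WT libraries (1.41 ± 0.42, adjusted p = 0.0202). Without Jak1KO replicate 1 its adjusted p was 0.0604. Il7r (-1.33 ± 0.40, adjusted p = 0.0195) and Il2ra, also on the regulatory T cell list (-1.07 ± 0.35, adjusted p = 0.0322), were among the 6 that were lower. The groups overlapped for Il2ra, which did not pass with limma voom.

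Molecules by which lymphocytes recognise or restrain tumour cells showed several single changes. Raet1e, a ligand of the activating NK receptor NKG2D, was at 0.547, 0.500, 0.706, 0.415 and 0.669 CPM in the Jak1KO libraries, against 8.18, 6.47, 12.1, 6.86 and 6.81 CPM in the WT libraries (-3.81 ± 0.23, adjusted p = 2.5e-12). Its relative Raet1d changed by -0.99 ± 0.17 (adjusted p = 8.42e-05), and Clec2d, a ligand of an inhibitory NK receptor, by -1.39 ± 0.31 (adjusted p = 0.00203). These were 3 of the 7 tested NK ligands, and 0 were higher. Ulbp1, a more abundant member, averaged 208 CPM in Jak1KO and 186 CPM in WT tumours and did not pass (0.16 ± 0.12, adjusted p = 0.349). The annotated span of Raet1d lies inside that of Raet1e, so the counting may not have assigned all of their reads. Among 22 checkpoint genes 2 were lower and 3 higher, beside 17.9% of all genes that differed. Nt5e, the adenosine-producing enzyme CD73, was at 4.21, 10.3, 8.37, 14.3 and 7.82 CPM in the Jak1KO libraries, against 23.3, 17.3, 32.7, 28.5 and 23.1 CPM in the WT libraries (-1.47 ± 0.22, adjusted p = 1.81e-05), and Lgals9, galectin-9, changed by -0.83 ± 0.13 (adjusted p = 5.26e-05); both had separate ranges. The receptor Tigit was at 4.32, 0.799, 1.65, 1.75 and 2.34 CPM in the Jak1KO libraries, against 0.422, 0.774, 0.278, 0.722 and 0.483 CPM in the WT libraries (2.01 ± 0.46, adjusted p = 0.00262), with every Jak1KO library above every WT library. Lag3 (1.30 ± 0.44, adjusted p = 0.0413) and Pdcd1, which encodes PD-1 (1.66 ± 0.58, adjusted p = 0.0432), were the other members that rose, and both overlapped. Neither passed when any 1 of Jak1KO replicates 1, 3, 4 and 5 or WT replicates 1, 4 and 5 was left out, nor did Lag3 without WT replicate 3 (adjusted p up to 0.132 for Lag3 and 0.112 for Pdcd1). The count of higher checkpoint genes was 1 without Jak1KO replicate 1, 3, 4 or 5 or WT replicate 1, 4 or 5.

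Of 23 chemokines 4 were lower and 1 higher, where 17.9% of all genes differed. Cxcl1, a neutrophil attractant, was at 2.24, 2.2, 2.54, 1.89 and 1.97 CPM in the Jak1KO libraries, against 20.2, 2.49, 7.11, 5.31 and 3.56 CPM in the WT libraries (-1.84 ± 0.41, adjusted p = 0.0021), with a uniform low level in Jak1KO and the highest value in WT replicate 1, without which the change was -1.09. For Cxcl5 the change was -4.60 ± 1.18 and rested on the same library, being -1.94 (adjusted p = 0.237) without WT replicate 1. Ccl11, the eosinophil attractant eotaxin, was at 2.52, 9.64, 3.2, 3.05 and 4.85 CPM in the Jak1KO libraries, against 1.86, 1.44, 0.389, 0.309 and 1.63 CPM in the WT libraries (2.03 ± 0.45, adjusted p = 0.0019), and its groups did not overlap.

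Some T cell markers, all at low levels, were higher in Jak1KO tumours, a count that rested on single libraries. Of 21 T cell genes 8 were higher, 0 lower and 13 did not pass (median 1.43), and their summed level was 64.5 to 126 CPM in Jak1KO libraries and 48.5 to 74.1 CPM in WT libraries, which overlapped. Cd4, the helper T cell co-receptor, was at 2.24, 0.899, 1.83, 3.42 and 1.97 CPM in the Jak1KO libraries, against 0.591, 0.774, 0.500, 0.361 and 0.835 CPM in the WT libraries (1.75 ± 0.36, adjusted p = 0.000907). Cd3e, the T cell receptor chain, was at 4.27, 0.500, 1.74, 2.63 and 2.34 CPM in the Jak1KO libraries, against 0.337, 1.22, 0.333, 0.774 and 0.659 CPM in the WT libraries (1.79 ± 0.63, adjusted p = 0.0492), and Cd8a, of killer T cells, was at 13.2, 2.15, 5.55, 5.82 and 5.77 CPM in the Jak1KO libraries, against 0.844, 4.37, 1.72, 1.08 and 1.49 CPM in the WT libraries and did not pass (1.78 ± 0.80, adjusted p = 0.122). Cd3e did not pass when any 1 of Jak1KO replicates 1, 3, 4 and 5 or WT replicates 1, 3, 4 and 5 was left out (adjusted p up to 0.142). Cd4 had no overlap, and Jak1KO replicate 1 held the highest Cd3e and Cd8a levels. The count of higher T cell genes depended on single libraries. It was 1 without Jak1KO replicate 1, 5 without Jak1KO replicate 3 or 5, and 2, 5, 3 and 4 without WT replicate 1, 3, 4 and 5, while DESeq2 called 14 and limma voom 4. The transcription factor Tbx21 (T-bet) changed by 1.84 ± 0.52 (adjusted p = 0.0133), and it was 1 of 2 higher genes among 24 of the cytotoxic and NK list, next to 1 lower. The count of 2 was 1 without Jak1KO replicate 5 or WT replicate 1 or 5, and the list's share of calls was under the 17.9% of all genes. The cytotoxic enzyme Gzmb was at 7.06, 5.40, 7.01, 3.37 and 8.24 CPM in the Jak1KO libraries, against 7.42, 3.60, 19.3, 8.00 and 4.57 CPM in the WT libraries (-0.46 ± 0.62, adjusted p = 0.644), and Ifng, which encodes interferon gamma, at 1.48, 0.450, 0.423, 0.0923 and 1.88 CPM in the Jak1KO libraries, against 0.211, 0.166, 0.389, 0.413 and 0.132 CPM in the WT libraries (1.72 ± 0.82, adjusted p = 0.147). Neither passed.

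Only 3 of 12 B cell genes were expressed at a testable level, and they moved both ways. Cd22 was at 4.21, 2.55, 5.41, 5.59 and 2.51 CPM in the Jak1KO libraries, against 0.675, 0.498, 0.778, 1.29 and 0.747 CPM in the WT libraries (2.34 ± 0.29, adjusted p = 1.07e-06) and Cd79b changed by 1.80 ± 0.43 (adjusted p = 0.00337), both without overlap, whereas Pax5, which defines B cells, was lower at 0.0547, 0, 0.0941, 0 and 0.0836 CPM in the Jak1KO libraries, against 0.633, 0.553, 0.611, 0.929 and 0.0879 CPM in the WT libraries (-3.40 ± 0.64, adjusted p = 0.000346). The groups overlapped for Pax5. This gene lies on chromosome 4 in the window from 40000001 to 50000000, where 60 of 103 tested genes were lower. Of 7 mast cell and eosinophil genes 3 were higher and 0 lower. The mast cell protease Tpsab1 was at 1.53, 0.400, 0.470, 1.29 and 0.753 CPM in the Jak1KO libraries, against 0.127, 0.387, 0.0556, 0.0516 and 0.264 CPM in the WT libraries (2.29 ± 0.62, adjusted p = 0.0106), without overlap, and Mcpt2 changed by 1.91 ± 0.60 (adjusted p = 0.0265), with an adjusted p of up to 0.11 without Jak1KO replicate 1 or WT replicate 1 or 4. The mast cell count was 1 without Jak1KO replicate 1 or WT replicate 1 or 4.

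Among 23 macrophage and monocyte genes 3 were higher and 1 lower, near the 17.9% of all genes that differed. The summed level was 3986 to 6273 CPM in Jak1KO and 2532 to 8574 CPM in WT libraries. The defining genes Adgre1 and Csf1r did not pass. Mertk, a receptor for dying cells, was at 94.6, 103, 117, 118 and 91.8 CPM in the Jak1KO libraries, against 59.6, 65.3, 61.2, 76.9 and 69.5 CPM in the WT libraries (0.66 ± 0.12, adjusted p = 0.000327), and the transcription factor Maf changed by 0.72 ± 0.16 (adjusted p = 0.00169); neither gene overlapped. Spp1, osteopontin, was at 95.3, 262, 149, 142 and 138 CPM in the Jak1KO libraries, against 588, 183, 381, 369.8 and 279 CPM in the WT libraries (-1.20 ± 0.34, adjusted p = 0.0141; adjusted p = 0.0581 without WT replicate 1). Itgax, which encodes CD11c and marks dendritic cells and macrophages, was at 19.3, 11.6, 14.8, 16.9 and 20.7 CPM in the Jak1KO libraries, against 28.0, 45.6, 35.7, 73.6 and 37.0 CPM in the WT libraries (-1.40 ± 0.29, adjusted p = 0.00118), and the other 9 dendritic cell genes did not pass. Of 10 neutrophil genes the receptors Trem1 (-1.77 ± 0.28, adjusted p = 4.45e-05) and Clec4e (-1.33 ± 0.31, adjusted p = 0.0033) were lower and Csf3r was higher (1.13 ± 0.33, adjusted p = 0.0184, adjusted p up to 0.0563 without Jak1KO replicate 1 or WT replicate 1), and the other 7 did not pass.

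Endothelial, adipocyte, erythroid and skeletal muscle lists had 2, 0, 0 and 0 lower genes and 0 higher. The endothelial count was 0 without Jak1KO replicate 2, 3 or 5 or WT replicate 1 or 2, and 1 without Jak1KO replicate 1 or WT replicate 3. In the last 3 lists DESeq2 and limma voom also called 0, with 1, 0 and 1 genes at an unadjusted p under 0.05. Skeletal muscle RNA varied between libraries, with the list's sum at 6.48 to 239.6 CPM in Jak1KO and 18.0 to 743 CPM in WT libraries and medians of 10.0 CPM in Jak1KO and 56.0 CPM in WT libraries. Acta1, skeletal actin, was at 0.875, 0.300, 50.4, 0.185 and 0.0418 CPM in the Jak1KO libraries, against 10.8, 319, 13.9, 2.68 and 73.6 CPM in the WT libraries (-3.01 ± 1.89, adjusted p = 0.275). Jak1KO replicate 3 and WT replicates 2 and 5 held the most. Without these 3 libraries, a choice made after seeing the data, 30 of 30 type I genes, 23 of 33 gamma genes and 15 of 24 class I genes were lower, and 4 T cell genes and 1 mast cell gene were higher, while 0 endothelial genes were lower.

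**Figure D3:**
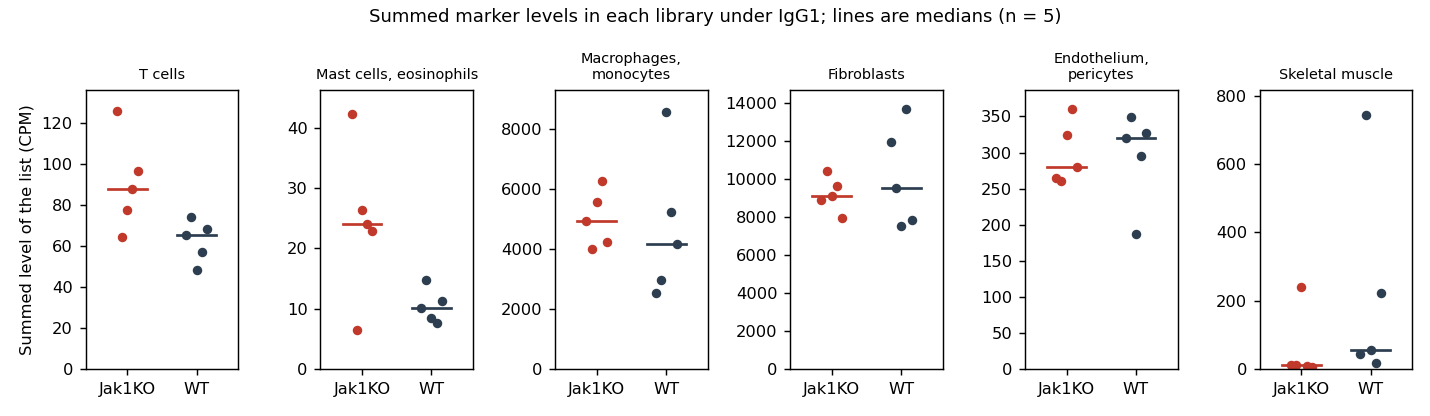
Summed level (CPM) of 6 marker lists in each of the 5 Jak1KO (left) and 5 WT (right) libraries with IgG1; horizontal lines are medians and each panel has its own axis from 0. The T cell and mast cell medians are 88.0 and 24.0 CPM in Jak1KO tumours, against 65.5 and 10.0 CPM in WT tumours, and all 6 panels show overlap.

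Because the series is about proteases, the protease and inhibitor lists were followed gene by gene. Together 28 of their 171 tested members were lower and 8 higher in Jak1KO tumours, 21.1% against 17.9% of all genes, with a median of -0.129. The caspases with roles in inflammation were lower. Casp1 is given above, Casp4, the sensor of bacterial lipopolysaccharide, was at 24.0, 22.5, 21.1, 27.0 and 24.0 CPM in the Jak1KO libraries, against 81.3, 53.2, 92.7, 55.0 and 39.4 CPM in the WT libraries (-1.44 ± 0.18, adjusted p = 1.24e-06), and Casp12, their neighbour on chromosome 9, changed by -1.04 ± 0.16 (adjusted p = 3.93e-05). All 3 were without overlap, and the summed level of the 17 caspase and pyroptosis genes was 486 to 560 CPM in Jak1KO and 586 to 1089 CPM in WT libraries. Casp8, an initiator of cell death, and Gsdmd, a pore-forming target of Casp1 and Casp4, did not pass.

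Of 20 matrix metalloproteinases and their inhibitors 6 were lower and 0 higher. Mmp28 was at 0.875, 0.649, 0.470, 0.231 and 0.836 CPM in the Jak1KO libraries, against 4.85, 4.21, 4.11, 6.60 and 2.55 CPM in the WT libraries (-2.86 ± 0.35, adjusted p = 8.18e-07), and Mmp2, a gelatinase, at 124, 192, 149, 166 and 151 CPM in the Jak1KO libraries, against 434, 270, 167, 308 and 249.6 CPM in the WT libraries (-0.87 ± 0.22, adjusted p = 0.00531). The ranges were separate for Mmp28 and overlapped for Mmp2. Mmp13 and Mmp14, collagenases, did not pass. Of 23 ADAM and ADAMTS genes 4 were lower and 3 higher. Adamts8 was at 0.766, 0.999, 0.706, 0.508 and 0.460 CPM in the Jak1KO libraries, against 8.22, 5.14, 6.17, 10.6 and 9.49 CPM in the WT libraries (-3.53 ± 0.26, adjusted p = 7.5e-11), and Adamts1, which cleaves versican and aggrecan, moved the other way, at 192, 250.1, 201, 201 and 169.8 CPM in the Jak1KO libraries, against 107, 77.3, 42.3, 89.8 and 83.2 CPM in the WT libraries (1.34 ± 0.22, adjusted p = 4.86e-05). Neither gene had overlapping groups.

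Plat, tissue plasminogen activator, was at 37.4, 44.2, 34.4, 42.8 and 42.2 CPM in the Jak1KO libraries, against 95, 79.8, 154, 74.0 and 98.5 CPM in the WT libraries (-1.32 ± 0.16, adjusted p = 5.59e-07). It was among 5 lower and 0 higher of 18 plasminogen and serpin genes. Serpinb9, an inhibitor of granzyme B, changed by -0.62 ± 0.20 (adjusted p = 0.0268), and by -0.36 (adjusted p = 0.169) without WT replicate 3; it also did not pass without Jak1KO replicate 2 or 3. Plau and Plaur did not pass. The serpin and plasminogen count fell to 3, 2 and 3 without Jak1KO replicate 1, Jak1KO replicate 3 and WT replicate 3. Among 15 cathepsins and legumain 3 were lower and 1 higher. Ctso was at 28.7, 29.7, 36.6, 34.7 and 30.0 CPM in the Jak1KO libraries, against 57.1, 53, 111, 60.8 and 41.2 CPM in the WT libraries (-1.02 ± 0.18, adjusted p = 0.000237), without overlap. Ctsk, the collagen-cleaving cathepsin K, was at 2.24, 0.699, 2.87, 2.77 and 3.43 CPM in the Jak1KO libraries, against 59.1, 40.2, 1.83, 4.75 and 10.3 CPM in the WT libraries (-3.27 ± 0.83, adjusted p = 0.00623), with WT replicates 1 and 2 far above the rest. Ctsl changed by -0.52 ± 0.15 (adjusted p = 0.0141), with an adjusted p of 0.0533 without WT replicate 3, and the other 11 members did not pass. Ctsw, a cathepsin of cytotoxic lymphocytes, rose, with 5.42, 3.10, 4.42, 2.77 and 5.86 CPM in the Jak1KO libraries, against 1.22, 1.99, 2.78, 1.34 and 1.49 CPM in the WT libraries (1.29 ± 0.35, adjusted p = 0.00994). Of 18 complement genes 3 were lower and 1 was higher. The protease C1ra changed by -1.04 ± 0.26 (adjusted p = 0.00455) and the central component C3 by 0.93 ± 0.31 (adjusted p = 0.0349). C3 did not pass when Jak1KO replicate 1, 2 or 5 or WT replicate 1, 2, 3 or 5 was left out (adjusted p up to 0.0997). Of 30 other peptidases, many of them at the cell surface, 3 were higher and 1 was lower, a share under the 17.9% of all genes. Mme, the peptidase neprilysin, changed by 0.74 ± 0.20 (adjusted p = 0.0083), Prss23 by 0.53 ± 0.14 (adjusted p = 0.00677), Prcp by 0.41 ± 0.12 (adjusted p = 0.0198) and Cpe, carboxypeptidase E, by -0.70 ± 0.22 (adjusted p = 0.0282). Prcp did not pass without Jak1KO replicate 1 or 4 or WT replicate 1 (adjusted p up to 0.0592), nor Cpe without Jak1KO replicate 1, 3 or 5 or WT replicate 1 or 3 (up to 0.0836). Both lists together held 4 of the 8 higher protease calls. Of the 31 subunits of the constitutive 26S proteasome 2 were lower, a count that was 0 without Jak1KO replicate 2 or 3, WT replicate 3 or the muscle-rich libraries described above, 1 without Jak1KO replicate 1 or 4 or WT replicate 5, and 4 without WT replicate 4.

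Matrix genes outside the collagens showed some of the largest changes. Of 23 elastic fibre and proteoglycan genes 5 were higher and 3 lower. Eln, elastin, was at 36.5, 129.8, 69.8, 87.1 and 61.1 CPM in the Jak1KO libraries, against 3.8, 33.2, 1.17, 3.66 and 8.44 CPM in the WT libraries (2.94 ± 0.60, adjusted p = 0.000892). Mfap4, a microfibril protein bound to elastin, was at 94.0, 216, 111, 115 and 148 CPM in the Jak1KO libraries, against 21.3, 19.1, 21.3, 31.9 and 14.2 CPM in the WT libraries (2.67 ± 0.35, adjusted p = 2.66e-06), and Fbln5, which assembles elastic fibres, changed by 1.20 ± 0.30 (adjusted p = 0.00556). All WT libraries lay below all Jak1KO libraries for these genes. In the other direction, Fbln2 was at 13.2, 8.89, 9.50, 10.8 and 18.8 CPM in the Jak1KO libraries, against 159, 112, 36.7, 68.7 and 71.2 CPM in the WT libraries (-2.87 ± 0.46, adjusted p = 4.91e-05) and Dcn, the proteoglycan decorin, at 401, 513, 469, 544 and 269 CPM in the Jak1KO libraries, against 1274, 559.6, 2004, 1250 and 704 CPM in the WT libraries (-1.40 ± 0.30, adjusted p = 0.00121). Both were without overlap. Lox, which crosslinks elastin and collagen, changed by -1.16 ± 0.31 (adjusted p = 0.00877). The count of higher elastic fibre genes was 8 without WT replicate 2 or 4, and that of lower ones 5 without WT replicate 3 or 4. Of 32 collagen genes 1 was higher and 2 lower (4 without WT replicate 3), and the other 29 did not pass. This share was under the 17.9% of all genes.

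Stress genes were lower in part, and few proliferation genes passed. Of 19 genes of the unfolded protein and integrated stress responses 11 were lower and 0 higher (median -0.42), and their summed level was 4374 to 4988 CPM in Jak1KO and 5408 to 7249 CPM in WT libraries. Herpud1, which clears misfolded proteins from the endoplasmic reticulum, was at 64.3, 76.4, 76.0, 72.4 and 64.1 CPM in the Jak1KO libraries, against 124, 92.7, 149.9, 117 and 122 CPM in the WT libraries (-0.78 ± 0.12, adjusted p = 4.68e-05). Xbp1 and Atf4, transcription factors of these responses, changed by -0.53 ± 0.11 (adjusted p = 0.00119) and -0.45 ± 0.13 (adjusted p = 0.0152), the second not passing without WT replicate 3 (adjusted p = 0.0564), and Chac1, an Atf4 target, by -0.90 ± 0.20 (adjusted p = 0.00182). Without any 1 library 8 to 13 members were lower. Of 14 p53 targets 6 were lower and 0 higher. Tnfrsf10b, a death receptor for TRAIL, was at 27.6, 26.4, 27.1, 28.4 and 26.1 CPM in the Jak1KO libraries, against 57.1, 64.3, 46.2, 51.5 and 61.6 CPM in the WT libraries (-1.05 ± 0.09, adjusted p = 1.19e-09), Fas, the death receptor of the Fas ligand, at 3.94, 3.70, 2.77, 4.11 and 3.89 CPM in the Jak1KO libraries, against 14.6, 7.86, 28.1, 12.8 and 8.00 CPM in the WT libraries (-1.95 ± 0.28, adjusted p = 1e-05) and Cdkn1a, the cell cycle inhibitor p21, at 18.5, 53.9, 33.9, 41.8 and 29.8 CPM in the Jak1KO libraries, against 77.4, 58.9, 82.7, 80.9 and 61.7 CPM in the WT libraries (-1.02 ± 0.18, adjusted p = 0.000192). No group overlapped for the 3 genes. Bax and Bbc3, which promote cell death, did not pass.

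Car9, a carbonic anhydrase induced by hypoxia, was at 5.53, 19.8, 7.20, 9.60 and 6.98 CPM in the Jak1KO libraries, against 40.1, 26.7, 35.6, 41.3 and 24.5 CPM in the WT libraries (-1.78 ± 0.44, adjusted p = 0.00477), and 3 of 18 hypoxia and glycolysis genes were lower. That count was 9 without Jak1KO replicate 2, 1 without Jak1KO replicate 1 or 5 or WT replicate 3, and 5 without WT replicate 2 or 5. Of 18 replication licensing genes 0 passed with edgeR, DESeq2 or limma voom and 2 had an unadjusted p under 0.05, and of 20 mitotic genes 1 was higher and 1 lower, each count being 0 to 2 without 1 library.

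Among the largest differences were genes outside these lists with almost no counts in the tumours of either the Jak1KO or the WT group. Strc (ENSMUSG00000033498, chromosome 2, 121363728 to 121387168, GRCm38), which encodes stereocilin of the inner ear, had 1 count over the 5 Jak1KO libraries and 1231 counts over the 5 WT libraries, a ratio of WT to Jak1KO of 1270 with an exact 95% counting interval of 227.5 to 50200. Ckmt1, which overlaps the end of Strc, had 1 and 79 counts. Among the nearest other genes, Ppip5k1 did not pass (0.13 ± 0.13) and Catsper2 rose by 0.65 ± 0.18 (adjusted p = 0.0095). Pdia3, also within 50 kb, changed by -0.45 ± 0.14 (adjusted p = 0.0225). Hpse2 (ENSMUSG00000074852, chromosome 19, 42786539 to 43388355), a heparanase relative without known enzyme activity, had 1408 counts in Jak1KO and 3 counts in WT libraries, a ratio of 455 (interval 155 to 2209). Such intervals cover counting error only.

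In all, 19 genes that passed had at most 3 counts over the 5 Jak1KO libraries and 3 had at most 3 over the 5 WT libraries. Gata6, a transcription factor of endoderm, had 3 counts in Jak1KO and 377 in WT libraries (ratio of WT to Jak1KO 129.6, interval 44.0 to 632). Fut9, a fucosyltransferase, had 0 and 124 counts, which is at least 42.6-fold lower in Jak1KO libraries, with a floor of 3 counts over the group.

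Further large falls included genes of the cadherin superfamily, a ligand and a surface protein. Cdh10, a cadherin, was at 0.0547, 0, 0, 0.0923 and 0.0418 CPM in the Jak1KO libraries, against 6.75, 7.86, 4.72, 5.11 and 4.57 CPM in the WT libraries (-7.05 ± 0.51, adjusted p = 7.5e-11), and Cdh19 and Pcdh7, of the same superfamily, changed by -4.32 ± 0.33 and -4.04 ± 0.30. Angpt1, the vessel-stabilising ligand of TEK, was at 1.48, 2.25, 2.40, 1.75 and 1.80 CPM in the Jak1KO libraries, against 28.5, 19.6, 28.0, 24.2 and 15.7 CPM in the WT libraries (-3.58 ± 0.24, adjusted p = 1.73e-11). Ly6c1, a surface protein that is interferon-inducible and also marks endothelium, was at 7.61, 7.64, 4.94, 3.97 and 9.70 CPM in the Jak1KO libraries, against 88.1, 42.5, 142, 94.0 and 39.2 CPM in the WT libraries (-3.58 ± 0.39, adjusted p = 1.61e-07). Among the rises, Lama2, a laminin chain, was at 4.65, 30.8, 9.27, 10.5 and 10.5 CPM in the Jak1KO libraries, against 0.970, 3.04, 0.167, 0.722 and 1.32 CPM in the WT libraries (3.40 ± 0.58, adjusted p = 0.000105), with Jak1KO replicate 2 the highest. Map2, a microtubule protein of neurons, was at 10.9, 12.7, 12.2, 12.5 and 11.2 CPM in the Jak1KO libraries, against 2.02, 2.71, 2.28, 2.01 and 2.07 CPM in the WT libraries (2.42 ± 0.24, adjusted p = 2.41e-08), and Fgfr2, a growth factor receptor, at 10.6, 13.0, 11.0, 13.3 and 11.1 CPM in the Jak1KO libraries, against 3.63, 1.99, 1.33, 3.30 and 1.98 CPM in the WT libraries (2.26 ± 0.26, adjusted p = 3.06e-07). Afp, alpha-fetoprotein, changed by 2.10 ± 0.26 (adjusted p = 1.27e-06) and Peg3, an imprinted gene, by 2.02 ± 0.40 (adjusted p = 0.000678). No library of one group entered the other's range for these genes.

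B2mKO tumours with IgG1, whose cells were mutated in another gene, gave another set of levels for the same genes. For Hpse2 the mean was 13.4 CPM in Jak1KO, 5.15 CPM in B2mKO and 0.0280 CPM in WT tumours (n = 5 each). Gata6 averaged 0.0283 CPM in Jak1KO, 0.136 CPM in B2mKO and 3.70 CPM in WT tumours, and Adamts8 0.688 CPM in Jak1KO, 1.34 CPM in B2mKO and 7.92 CPM in WT tumours. On the log2 scale the B2mKO level of these 3 genes lay nearer to the Jak1KO level. Some other large falls outside the interferon lists lay nearer to WT on that scale. Cdh10 averaged 0.0378 CPM in Jak1KO, 2.65 CPM in B2mKO and 5.80 CPM in WT tumours. Angpt1 averaged 1.94 CPM in Jak1KO, 32.1 CPM in B2mKO and 23.2 CPM in WT tumours, and Cdh19 0.370 CPM in Jak1KO, 10.6 CPM in B2mKO and 7.55 CPM in WT tumours, with the highest level in B2mKO for both. Among the rises, Map2 averaged 11.9 CPM in Jak1KO, 2.55 CPM in B2mKO and 2.22 CPM in WT tumours and Mfap4 137 CPM in Jak1KO, 174 CPM in B2mKO and 21.6 CPM in WT tumours, so that the B2mKO level of these genes had no common side. Of the interferon genes, Ifit1 averaged 28.5 CPM in Jak1KO, 291 CPM in B2mKO and 221 CPM in WT tumours. The NK ligand Raet1e averaged 0.567 CPM in Jak1KO, 8.67 CPM in B2mKO and 8.09 CPM in WT tumours. All 30 type I genes were lower in Jak1KO than in B2mKO tumours at the threshold (median -2.52), where 28.1% of all genes differed. This comparison shares the Jak1KO libraries with the main one.

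Changes were unevenly placed along the genome. On chromosome 3, 195 of 791 tested genes were lower and 15 higher in Jak1KO tumours, and on chromosome 4, where Jak1 lies, 180 of 918 were lower and 38 higher. Chromosome 6 had 156 lower and 22 higher of 813, and chromosome 8 had 129 lower and 13 higher of 813. The median change was -0.199 on chromosome 3, -0.129 on chromosome 4, -0.133 on chromosome 6 and -0.111 on chromosome 8, against 0.127 on chromosome 19 and 0.0928 on chromosome 17. The size differed along these chromosomes. On chromosome 4 it was largest from 40000001 to 50000000, where the median was -0.539 and 60 of 103 tested genes were lower and 0 higher, while the window that holds Jak1 had a median of -0.168 with 12 of 64 lower. On chromosome 6 it was largest from 1 to 10000000, with a median of -0.448 and 15 of 32 lower. In windows of 10 Mb with at least 20 tested genes, the median was negative in 13 of 13 windows on chromosome 3, in 13 of 13 on chromosome 6, in 12 of 12 on chromosome 8 and in 12 of 14 on chromosome 4, and positive in 9 of 9 on chromosome 17.

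Each library showed the pattern by itself. Relative to the WT mean, the median log2 level of chromosome 3 genes was -0.223 to -0.184 in the 5 Jak1KO libraries and -0.0260 to 0.0320 in the 5 WT libraries. For chromosome 19 it was 0.108 to 0.163 in Jak1KO and -0.0158 to 0.0291 in WT libraries. The 5 Jak1KO libraries with aPD1, which are other samples, had -0.223 to -0.153 on chromosome 3 and 0.103 to 0.154 on chromosome 19, beside -0.0512 to 0.0113 and -0.00550 to 0.0253 in WT libraries with aPD1. B2mKO libraries with IgG1 had 0.0420 to 0.113 on chromosome 3, -0.177 to -0.124 on chromosome 19 and -0.219 to -0.178 on chromosome 8. Immediately around Jak1, 5 of 36 annotated genes within 1 Mb were tested and 1 was lower, the mitochondrial adenylate kinase Ak4 (-0.65 ± 0.13, adjusted p = 0.000735).

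**Figure D4:**
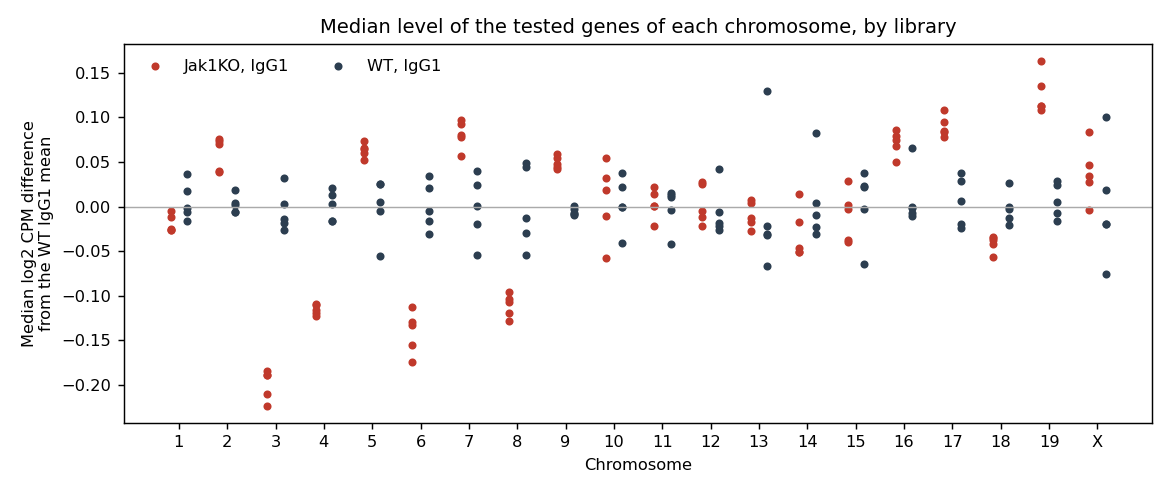
Median log2 CPM difference from the WT IgG1 mean over the tested genes of each chromosome, by library; red points (left) are the 5 Jak1KO and dark points (right) the 5 WT libraries with IgG1. On chromosomes 3, 4, 6, 8 and 18 all Jak1KO points lie below all WT points, and on chromosomes 2, 5, 7, 9, 17 and 19 they lie above them.

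The same genotypes treated with aPD1 gave a comparison in 10 other libraries within the same fit. There 3106 of 15505 genes differed between Jak1KO and WT tumours (20.0%), with 8.06% of genes higher and 12.0% lower in Jak1KO tumours. Of the 2773 genes that differed under IgG1, 2687 (96.9%) had a difference of the same sign under aPD1, and 1638 passed there in that direction, 59.1% of the IgG1 genes and 52.7% of the aPD1 genes, while 3 passed in the opposite direction. Over all genes tested, the rank correlation (Spearman) between the changes under IgG1 and under aPD1 was 0.578. The median change of the type I list was -1.59 under aPD1 and -1.46 under IgG1, with 30 of 30 members lower in both. The interferon gamma list had 32 of 33 members lower under aPD1 (median -2.17), against 23 of 33 under IgG1. MHC class I had 20 of 24 lower (median -1.10) and class II 10 of 10 lower (median -1.95) under aPD1, against 15 and 0 under IgG1.

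T cell genes, with 8 of 21 higher under IgG1, had 0 higher and 0 lower under aPD1 (median -0.193). Cd274 had a difference of -2.36 ± 0.30 under aPD1 and of -0.52 ± 0.29 under IgG1. Whether the genotype effect differed between antibodies was tested for every gene, and 0 passed with edgeR, where 1249 had an unadjusted p under 0.05 and the smallest adjusted p was 0.199. limma voom called 0 (1233 unadjusted) and DESeq2 called 51. Eln and Mfap4 changed by 4.56 ± 0.65 and 4.18 ± 0.38 under aPD1, and Hpse2 by 9.15 ± 0.37.

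**Figure D5:**
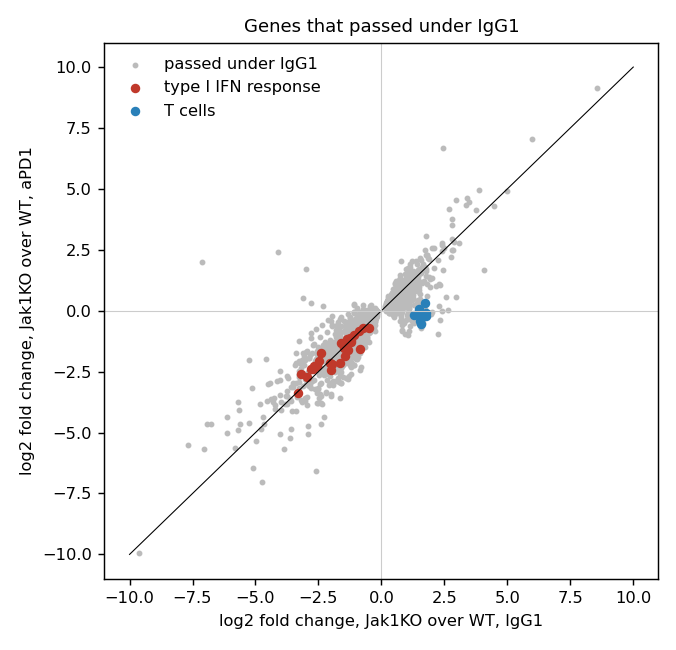
Log2 fold change of Jak1KO over WT tumours under IgG1 (x axis) and under aPD1 (y axis) for the 2773 genes that passed under IgG1; the line marks equal change. Type I interferon genes (red) lie near the line below 0, and the 8 T cell genes (blue) lie near 0 on the aPD1 axis.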

How the data were processed

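Bulk RNA was measured in 30 tumour libraries, prepared with a TruSeq RNA kit and sequenced from paired ends, per the labels' protocols. The authors deposited raw counts of reads per gene, made with featureCounts 2.0.0 on Ensembl GRCm38 release 99, per the file headers. The command in the headers sets no strand, counts reads rather than fragments and leaves out reads that map to several places, so overlapping and antisense genes cannot be told apart and near-identical copies are undercounted. The submitters' processing notes also name FastQC 0.11.2, STAR 2.5.2a, Cufflinks 2.2.1 and edgeR 3.24.3, with no role given. The header of 1 WT library with aPD1 (replicate 2) names an alignment by another name than its sample. It enters only the aPD1 comparison and the shared spread.

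Counts were analysed in R 4.3.3 with edgeR 4.0.16. Genes were kept by a filter on low counts (minimum 10, minimum total 15), libraries were scaled by TMM, which corrects for differences in library composition, and 1 quasi-likelihood fit used all 30 libraries with 6 group means. P-values were adjusted by Benjamini-Hochberg over the 15505 genes, with a threshold of 0.05. "Did not pass" means an adjusted p at or above 0.05 in that test. Standard errors were derived from the log2 fold change and the F statistic of its test. Total counts of 17629795 to 23938816 per library in the 10 libraries set the precision. Samples were grouped by their labels. Any 2 libraries of the same group differed by far more than counting noise, so none was a repeat deposit. The script was tested on simulated counts.

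The genes to be described were Jak1 and B2m, the receptor, kinase and factor genes that passed, up to 15 largest rises and 15 largest falls with at least 5 CPM and no overlap, up to 4 members with the smallest p in each list, and the genes within 1 Mb of Jak1. A selection of these is named, and some results are not reported here. Other genes in the text were chosen after their values were seen. The members and lists were chosen with earlier results of these data known. Alternatives were other scalings (RLE, upper quartile), other filters, a fit of the 10 libraries alone, a replicate block, leaving out libraries, stricter thresholds, DESeq2 1.42.0 and voom of limma 3.58.1. Promoter windows were searched in a RefSeq table of GRCm38.p6.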

Additional observations from a re-analysis of the deposited data

Results flagged for a closer look

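In 324 groups of 5 libraries, 2 for each of 162 of the genes named, the highest or lowest library was examined for a gap to its nearest neighbour above 0.71 of the group's range. Such a gap is expected in about 1 in 20 groups of independent, normally distributed values, and 28 were found. The groups here hold unlogged CPM of genes measured in the same libraries, some with a single count. The 1 in 20 is therefore not their chance rate, and the count of 28 does not show an excess. WT replicate 3 accounted for 10 of them, Jak1KO replicate 2 and WT replicate 2 for 5 each, and Jak1KO replicate 5 and WT replicate 1 for 3 each. No explanation was tested for any of them.

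WT replicate 3 was highest for Casp8 (137.8 CPM against 75.3 to 82.0 CPM in the other WT libraries, a gap of 0.893 of the range), Clec2d (gap 0.877), Bax (0.869), Serpinb9 (0.82), Psmb10 (0.818), Prcp (0.763), Irf3 (0.734), Gzmb (0.719) and Ctso (0.719). It was lowest for Jak1, at 182 CPM against 239 to 255 CPM in the other WT libraries (gap 0.783).

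Jak1KO replicate 2 was highest for Cebpd (gap 0.855), Ak4 (0.792), Lama2 (0.776) and Car9 (0.714), the last a gene induced by hypoxia. It was lowest for Ifngr2 (0.737). Jak1KO replicate 5 was highest for Cxcl10 (0.765) and Timp1 (0.725), and it held the single count of Strc (1.0). Jak1KO replicate 3 held the single count of Ckmt1 (1.0) and was highest for the muscle gene Acta1, at 50.4 CPM against 0.0418 to 0.875 CPM in the other Jak1KO libraries (0.983).

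WT replicate 1 was highest for Cxcl5 (gap 0.937), Mmp13 (0.816) and Cxcl1 (0.74). WT replicate 2 was highest for Acta1, at 319 CPM against 2.68 to 73.6 CPM in the other WT libraries (0.776), for Eln (0.773), for Cd8a (0.751) and for the keratins Krt18 (0.886) and Krt19 (0.901).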

How the results depend on the processing

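The same 162 genes were followed through the settings. Of the 121 of them that passed, 103 passed without each single library and 82 under every setting run. The count of differing genes was 2773, 1074 higher and 1699 lower. With the 10 libraries alone it was 1611 (511 higher, 1100 lower), with an adjusted p under 0.01 it was 1495 (468 and 1027), and with a log2 change of at least 1 it was 760 (209 and 551). With no filter beyond 1 count 637 genes were higher. Leaving out 1 library gave 2183 to 2953 genes. DESeq2 called 3194, limma voom 2750, RLE scaling 2776 and upper quartile scaling 2781, and leaving out the muscle-rich libraries, a choice made after seeing the data, gave 2618. The cause of these shifts was not tested, except that the 10-library fit has fewer samples.

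Replicate numbers showed no sign of pairing the libraries, though 5 libraries per group are too few to exclude pairing. Same-numbered Jak1KO and WT libraries had correlations of -0.249 to 0.000545, and 0 of 5 matched its own number best. With a replicate block the count was 2613 in all 30 libraries and 686 (169 higher, 517 lower) in the 10 libraries alone, where 0 of 21 T cell genes were higher.

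Among the genes followed, the reversals were in genes that did not pass. Without 1 library Cd74 ranged over -0.17 to 0.57, lowest without Jak1KO replicate 1, Cxcl9 over -0.41 to 0.35, with -0.04 without Jak1KO replicate 1, and Gzmb over -0.65 to 0.073, highest without WT replicate 3. Cxcl9 was at -0.19 and -0.28 with the replicate block in 30 and 10 libraries and -0.23 with limma voom. Gzmb was at 0.053 without WT replicate 3 and a B2mKO library with aPD1 (replicate 2), the 2 libraries that stand apart, and without these 3484 genes differed. Genes under about 1 CPM rest on few counts, which limits their precision.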
